A study of Mus musculus with 10 samples.

Results

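Colonic mononuclear phagocytes positive for both integrins CD11b and CD11c (CD11b+CD11c+) were set against CD11b+ cells of the same tissue. The comparison takes 4 of the 10 libraries of the series, 2 in each group, chosen by population. The sample titles abbreviate the populations, as DC_DP and DC_CD11bSP, and were read with the design of the series. All cells came from wild-type C57BL/6 mice aged 8 weeks, with no treatment named. The 2 libraries of colonic CD11c+ cells are given beside them, and their spread enters the test. The labels do not say whether the CD11b+ gate left out cells that carry CD11c, how many mice were pooled, or whether each library had mice of its own. P-values therefore rest on the variation between these libraries alone, part or all of which may be technical.

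CD11b is the alpha chain of complement receptor 3 and is carried by macrophages, monocytes, neutrophils, eosinophils and part of the dendritic cells. CD11c is the related alpha chain of complement receptor 4 and is prominent on dendritic cells and on many gut macrophages. Conventional dendritic cells develop under the growth factor receptor Flt3, carry antigen to lymph nodes through the chemokine receptor Ccr7 and present it to T cells on MHC class II. They form a type 1 lineage (cDC1), which takes up dead cells through Clec9a, and a type 2 lineage (cDC2), which depends on the transcription factor Irf4. Macrophages of the colonic lamina propria are renewed from blood monocytes and clear cell debris and bacteria, while macrophages along vessels and in the submucosa are longer lived.

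Estimated counts totalled 15454911 and 13805601 in the CD11b+CD11c+ libraries, 12806139 and 17709110 in the CD11b+ libraries and 24817329 and 16366962 in the CD11c+ libraries. A level is given in CPM, the count scaled by library size, for replicate 1 and then replicate 2. Fold changes are log2 values of CD11b+CD11c+ over CD11b+ with a standard error (SE), and a gene was called at an adjusted p under 0.05 over all 14225 genes tested. The replicates differed in the levels of cell type genes. Of 12 measured cDC1 genes, 11 were higher in CD11b+CD11c+ replicate 1 than in replicate 2, and none of 18 macrophage genes was. Over all genes tested, 7437 of 14225 were higher in replicate 1. The CD11c+ libraries differed further, with Csf1r, the growth factor receptor of macrophages, at 51.1 and 306 CPM. In bulk RNA of sorted cells, fewer cells of a type and less RNA per cell cannot be told apart. That holds for the replicates and for every group of genes below.

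Genes of the sort are given first, except H2-Ab1 and Cd74, which are described with MHC class II below. Itgam, which encodes CD11b, was at 694 and 793 CPM in CD11b+CD11c+ cells, against 742 and 743 CPM in CD11b+ cells, and was not called (log2 fold change 0.00, SE 0.20, adjusted p = 0.99). Itgax, which encodes CD11c, was at 679 and 772 CPM in CD11b+CD11c+ cells, against 491 and 557 CPM in CD11b+ cells. Both CD11b+CD11c+ libraries lay above both CD11b+ libraries for Itgax, by 0.47 on the log2 scale (SE 0.14), and the adjusted p was 0.087, or 0.043 in a fit of the 4 compared libraries alone. In CD11c+ cells Itgax stood at 784 and 946 CPM and Itgam at 25.9 and 40.5 CPM. Itgb2, the beta chain shared by both integrins, was at 398 and 382 CPM in CD11b+CD11c+ cells, against 452 and 447 CPM in CD11b+ cells, with an adjusted p of 0.19. The leukocyte marker CD45, encoded by Ptprc, was at 1311 and 1352 CPM in CD11b+CD11c+ cells, against 1334 and 1461 CPM in CD11b+ cells (adjusted p = 0.77), and the macrophage marker F4/80, encoded by Adgre1, at 870.1 and 1153 CPM in CD11b+CD11c+ cells, against 926 and 1022 CPM in CD11b+ cells (adjusted p = 0.96). In the test on all 6 libraries, none of these genes was called.

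The test called 1370 of 14225 genes, 9.63% of those tested, and in every one of them the libraries of the groups did not overlap. Such separation was common: over all 14225 genes, both CD11b+CD11c+ libraries lay above both CD11b+ libraries in 4178 and below both in 4268. Of the 1370 called genes, 539 (3.79% of genes tested) were higher in CD11b+CD11c+ cells and 831 (5.84%) were lower. Thus 39.34% of the calls were higher. The shares of 3.79% and 5.84% are the background for the count of called genes in each group below. DESeq2 called 2029 genes with 50.02% higher, and a fit of all 10 libraries of the series called 1817 with 60.54% higher. Differences of at least 2-fold were found in 182 genes that were higher (1.28%) and 642 that were lower (4.51%). The median over all genes tested was a log2 fold change of 0.01. The same test called 6110 genes (43.0%) between CD11b+CD11c+ and CD11c+ cells. The number of calls depended on single libraries, with 474 and 771 genes called without CD11b+CD11c+ replicate 1 and 2, and 226 and 434 without CD11b+ replicate 1 and 2. Of the 1370 genes, 462 and 669 were called again without CD11b+CD11c+ replicate 1 and 2, and 223 and 426 without CD11b+ replicate 1 and 2, and none changed direction. A fit of the 4 compared libraries alone called 1904 genes, 1346 of them among the 1370.

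**Figure D1:**
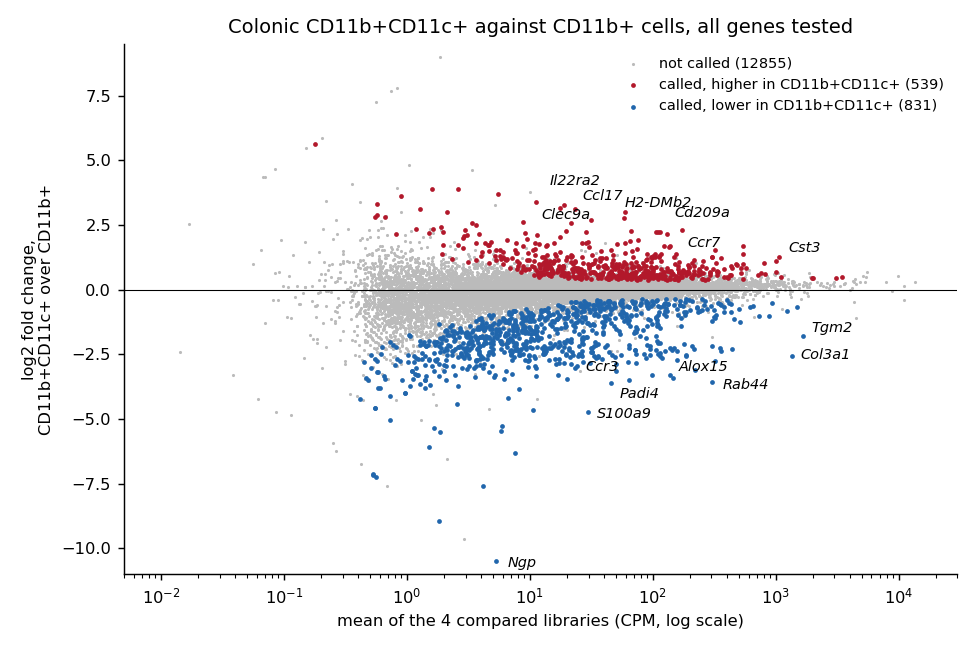
Each point is 1 of the 14225 genes tested, with its mean level over the 4 compared libraries (CPM, log axis) against its log2 fold change, CD11b+CD11c+ over CD11b+; red and blue mark the 539 genes called higher and the 831 called lower in CD11b+CD11c+ cells, and 4 genes at 0 in the 4 libraries are not drawn. Large falls are more common than large rises, the named points below 0 include granulocyte genes and Col3a1, and that of Ngp, at 0 in CD11b+CD11c+ cells, is placed by the fit and gives no fold.

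MHC class II presentation was the first group that differed. Of its 14 measured genes, 6 were called higher, where 3.79% of all genes were, and none was called lower. The median log2 fold change was 0.64, against 0.01 over all genes. The peptide editors led. H2-DMb2, a beta chain of the H2-DM peptide exchanger (chr17:34143307-34151555 of mm10), was at 217 and 162 CPM in CD11b+CD11c+ cells, against 39.7 and 41.3 CPM in CD11b+ cells (log2 fold change 2.23, SE 0.17, adjusted p = 0.0017). H2-Ob, the beta chain of H2-O, which restrains H2-DM, was at 109.9 and 74.3 CPM in CD11b+CD11c+ cells, against 24.9 and 27.4 CPM in CD11b+ cells (log2 fold change 1.81, SE 0.19, adjusted p = 0.0043). Its partner H2-Oa was at 50.4 and 31.5 CPM in CD11b+CD11c+ cells, against 11.8 and 11.7 CPM in CD11b+ cells (log2 fold change 1.80, SE 0.23, adjusted p = 0.0077). The libraries of the groups did not overlap in any of the 3, as in every called gene. CD11c+ cells held 157 and 189.7 CPM of H2-DMb2, within the range of CD11b+CD11c+ cells or below it, and 212 and 228 CPM of H2-Ob, above it. H2-Eb2, a class II beta chain, was at 13.5 and 9.02 CPM in CD11b+CD11c+ cells, against 3.999 and 3.71 CPM in CD11b+ cells (log2 fold change 1.55). Ciita, the coactivator that switches class II genes on, was at 87.7 and 88.8 CPM in CD11b+CD11c+ cells, against 42.2 and 52.998 CPM in CD11b+ cells (log2 fold change 0.89). H2-DMa, the alpha chain of the exchanger, was at 413 and 417 CPM in CD11b+CD11c+ cells, against 228 and 269 CPM in CD11b+ cells (log2 fold change 0.74).

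The abundant class II chains were not called in this fit. H2-Ab1 was at 6641 and 7031 CPM in CD11b+CD11c+ cells, against 3508 and 4955 CPM in CD11b+ cells (log2 fold change 0.69, SE 0.19, adjusted p = 0.081). H2-Aa was at 5948 and 6770.3 CPM in CD11b+CD11c+ cells, against 3773 and 5203 CPM in CD11b+ cells (log2 fold change 0.50, SE 0.19, adjusted p = 0.17), H2-Eb1 had an adjusted p of 0.15, and the invariant chain Cd74 was at 10980.0 and 12291 CPM in CD11b+CD11c+ cells, against 6799 and 9479.7 CPM in CD11b+ cells (adjusted p = 0.19). In each of these 4 genes both CD11b+CD11c+ libraries stood above both CD11b+ libraries, and CD11b+ replicate 1 was the lowest library of the 4. The peptidases Lgmn and Ctss, which trim the invariant chain, overlapped between the groups. At an unadjusted p under 0.05, 12 of the 14 genes passed. DESeq2 called 10 higher, H2-Ab1 and H2-Eb1 among them (adjusted p = 0.0045 and 0.047), a fit of all 10 libraries 9, and edgeR without the count filter called 12, these 4 genes included. The count of genes higher was 3 and 4 without CD11b+CD11c+ replicate 1 and 2, and 1 and 6 without CD11b+ replicate 1 and 2. kallisto divides reads among near-identical class II genes, so the level of a single chain is less certain than that of the group.

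The promoters of class II genes share an X box and a Y box, and the Y box holds the letters CCAAT, which read ATTGG on the other strand. The stretch of 150 bases before the start of transcription is shown for 4 genes that rose and for H2-Aa, an abundant chain that was not called, from RefSeq on GRCm38.p6. They lie at chr17:34145099-34145248, chr17:34092229-34092378, chr17:34238755-34238904 and chr17:34122682-34122831 on the plus strand and at chr17:34287824-34287973 on the minus strand. Each is printed 5′ to 3′ in the direction of its gene, and capitals mark CCAAT on either strand.
H2-DMb2: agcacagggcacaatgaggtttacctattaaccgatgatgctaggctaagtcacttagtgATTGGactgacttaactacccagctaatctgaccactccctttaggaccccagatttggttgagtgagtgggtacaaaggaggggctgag
H2-Oa: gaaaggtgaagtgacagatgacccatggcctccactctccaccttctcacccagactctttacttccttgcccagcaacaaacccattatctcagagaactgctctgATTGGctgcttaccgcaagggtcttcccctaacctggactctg
H2-Ob: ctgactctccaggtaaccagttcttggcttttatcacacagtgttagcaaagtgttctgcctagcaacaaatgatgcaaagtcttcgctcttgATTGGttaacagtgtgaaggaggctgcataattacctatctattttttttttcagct
H2-DMa: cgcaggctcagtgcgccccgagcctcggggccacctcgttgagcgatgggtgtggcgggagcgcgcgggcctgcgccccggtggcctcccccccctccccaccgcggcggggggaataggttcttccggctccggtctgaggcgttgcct
H2-Aa: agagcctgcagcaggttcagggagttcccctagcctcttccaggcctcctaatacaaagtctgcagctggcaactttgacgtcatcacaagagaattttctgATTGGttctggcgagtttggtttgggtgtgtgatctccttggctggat
The match began 90 bases before the start in H2-DMb2, 43 in H2-Oa, 57 in H2-Ob and 48 in H2-Aa, and H2-DMa had none. The stretch of H2-DMb2 lies inside the span given for that gene above, so its RefSeq start differs from the start of that span. Of the 8 class II H2 genes with a promoter in the table, 7 held CCAAT within 250 bases before to 50 after the start. They were 4 of the 5 called higher and 3 of the 3 not called, so the letters did not divide the genes that rose from those that were not called. Over windows of the same length, 37.9% of all 27025 promoters and 32.9% of those of genes at least 2-fold higher held CCAAT on either strand. A match describes letters and is neither a site of binding nor a cause.

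Genes of conventional dendritic cells were higher in CD11b+CD11c+ cells. Of 8 genes common to both lineages, 6 were called higher and none lower, with a median log2 fold change of 1.79. Of all genes tested, 3.79% were called higher. Flt3, the growth factor receptor of the lineage (chr5:147330741-147400489), was at 142 and 79.4 CPM in CD11b+CD11c+ cells, against 24.2 and 21.8 CPM in CD11b+ cells (log2 fold change 2.27, SE 0.27, adjusted p = 0.0059). CD11c+ cells held 364 and 389.9 CPM. Zbtb46, a transcription factor that marks conventional dendritic cells among myeloid cells, was at 54.7 and 40.1 CPM in CD11b+CD11c+ cells, against 9.77 and 10.2 CPM in CD11b+ cells (log2 fold change 2.25, SE 0.17, adjusted p = 0.0016), close to the 65.1 and 68.7 CPM of CD11c+ cells. Kmo, an enzyme of tryptophan breakdown, rose by 1.81, the inhibitory receptor Btla by 2.56 and Dpp4, the peptidase CD26, by 1.76 on the log2 scale. For all 6 genes called, both CD11b+CD11c+ libraries lay above both CD11b+ libraries, as in every gene called higher. Bcl11a and Spib, transcription factors also used by plasmacytoid dendritic cells, were under 5 CPM in the 4 libraries and were not called. The number called higher was 5 and 5 without CD11b+CD11c+ replicate 1 and 2, and 2 and 5 without CD11b+ replicate 1 and 2.

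Transcripts of cDC1 were higher in CD11b+CD11c+ cells. Of 12 measured genes, 9 rose and none fell, with a median of 2.35, where 3.79% of all genes rose. The median was 1.69 over the 11 genes tested in the 4 compared libraries alone, and 1.55 without CD11b+CD11c+ replicate 1. Clec9a, the receptor for dead cells, was at 30.1 and 10.4 CPM in CD11b+CD11c+ cells, against 2.38 and 1.599 CPM in CD11b+ cells (log2 fold change 3.37, SE 0.54, adjusted p = 0.015), and at 245 and 259.9 CPM in CD11c+ cells. The log2 fold change of Clec9a was 2.41 without CD11b+CD11c+ replicate 1 and 4.02 without CD11b+CD11c+ replicate 2. Itgae, the CD103 integrin chain that binds E-cadherin, was at 147 and 63.5 CPM in CD11b+CD11c+ cells, against 17.1 and 9.08 CPM in CD11b+ cells (log2 fold change 3.02, SE 0.47, adjusted p = 0.014). Without CD11b+CD11c+ replicate 1 its log2 fold change was 2.29. Xcr1, the chemokine receptor of cDC1, was at 7.59 and 2.18 CPM in CD11b+CD11c+ cells, against 0.461 and 0.228 CPM in CD11b+ cells (log2 fold change 3.88, SE 0.76, adjusted p = 0.028), with 2.70 without CD11b+CD11c+ replicate 1 and 4.58 without CD11b+CD11c+ replicate 2. Sept3, a septin, was at 13.6 and 6.77 CPM in CD11b+CD11c+ cells, against 0.769 and 0.7995 CPM in CD11b+ cells (log2 fold change 3.69, and 3.10 without CD11b+CD11c+ replicate 1). The more abundant Wdfy4, needed for cross-presentation, was at 1009 and 631 CPM in CD11b+CD11c+ cells, against 251 and 257 CPM in CD11b+ cells (log2 fold change 1.69, SE 0.23, adjusted p = 0.0089). Naaa, a lysosomal amidase, was at 181 and 122 CPM in CD11b+CD11c+ cells, against 56.8 and 58.3 CPM in CD11b+ cells (log2 fold change 1.39, SE 0.19, adjusted p = 0.0084). In all of these CD11b+CD11c+ replicate 1 was the highest of the 4 libraries, and both CD11b+CD11c+ libraries stayed below the CD11c+ libraries.

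Batf3, a transcription factor of the lineage, was at 24.5 and 24.04 CPM in CD11b+CD11c+ cells, against 12.8 and 13.1 CPM in CD11b+ cells (log2 fold change 0.91, SE 0.14, adjusted p = 0.015), with nearly equal replicates, and at 21.99 and 28.1 CPM in CD11c+ cells. Tlr3, a sensor of double-stranded RNA, rose by 0.90, and Gcsam by 3.90 at under 5 CPM (or 2.43 without CD11b+CD11c+ replicate 1 and 4.66 without CD11b+CD11c+ replicate 2). Irf8, which directs the lineage, was at 151 and 137 CPM in CD11b+CD11c+ cells, against 96.97 and 114 CPM in CD11b+ cells, and missed the threshold (adjusted p = 0.061, or 0.037 in the 4 compared libraries alone). Cadm1, an adhesion molecule of cDC1, overlapped between the groups. Summed over the list, the level was 1607 and 1044 CPM in CD11b+CD11c+ cells, 465 and 492 CPM in CD11b+ cells and 4647 and 4980 CPM in CD11c+ cells. The count of genes higher was 7 and 10 without CD11b+CD11c+ replicate 1 and 2, and 0 and 1 without CD11b+ replicate 1 and 2.

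Genes associated with cDC2 were mixed, with 5 of 15 higher, 2 lower and a median of 0.38. Of all genes tested, 3.79% were called higher and 5.84% lower. Cd209a, a DC-SIGN family lectin (chr8:3743397-3748984), was at 200.03 and 166 CPM in CD11b+CD11c+ cells, against 35.9 and 41.6 CPM in CD11b+ cells (log2 fold change 2.24, SE 0.21, adjusted p = 0.0030). It stood at 6.597 and 10.01 CPM in CD11c+ cells, so it was higher in CD11b+CD11c+ cells than in either of the other populations (log2 fold change over CD11c+ cells 4.47, SE 0.23, adjusted p = 0.00024). Clec10a, a galactose-binding lectin, was at 106 and 87.98 CPM in CD11b+CD11c+ cells, against 38.2 and 43.1 CPM in CD11b+ cells (log2 fold change 1.25, SE 0.15, adjusted p = 0.0067), and at 5.31 and 6.82 CPM in CD11c+ cells. Tnip3, an inhibitor of NF-kappaB signalling, was at 227 and 216 CPM in CD11b+CD11c+ cells, against 84.6 and 86.7 CPM in CD11b+ cells (log2 fold change 1.37, SE 0.15, adjusted p = 0.0051). Irf4 was at 77.2 and 74.8 CPM in CD11b+CD11c+ cells, against 42.1 and 46.03 CPM in CD11b+ cells (log2 fold change 0.79, SE 0.13, adjusted p = 0.015), and Il1r2, the decoy receptor of interleukin 1, at 1387 and 1374 CPM in CD11b+CD11c+ cells, against 582 and 683 CPM in CD11b+ cells (log2 fold change 1.13, SE 0.17, adjusted p = 0.012). Mgl2, the paralog of Clec10a, was at 287 and 308 CPM in CD11b+CD11c+ cells, against 131 and 164 CPM in CD11b+ cells, and was not called (adjusted p = 0.33), although the 4 compared libraries alone gave an adjusted p of 0.0042.

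The genes on that list that fell were Ltb, which encodes lymphotoxin beta and is also made by lymphocytes, and Notch2, the receptor on which a CD11b+ cDC2 subset depends. Ltb was at 7.87 and 7.62 CPM in CD11b+CD11c+ cells, against 50.8 and 38.3 CPM in CD11b+ cells (log2 fold change -2.52, SE 0.26, adjusted p = 0.0040), and Notch2 at 282 and 281 CPM in CD11b+CD11c+ cells, against 436 and 397 CPM in CD11b+ cells (log2 fold change -0.57, SE 0.12, adjusted p = 0.039). Sirpa, the inhibitory receptor used to gate cDC2 and also carried by macrophages, was at 319.98 and 381 CPM in CD11b+CD11c+ cells, against 368 and 389 CPM in CD11b+ cells, and its groups overlapped. Esam, an adhesion molecule of Notch2-dependent cells, was under 2 CPM in the 4 libraries. The number of cDC2 genes higher was 3 and 5 without CD11b+CD11c+ replicate 1 and 2, and 1 and 4 without CD11b+ replicate 1 and 2, and 1 was lower in each of these fits.

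Genes of mature, migratory dendritic cells were led by chemokines. Of 13 measured genes, 4 rose and none fell, with a median of 0.48, where 3.79% of all genes rose. Ccl17 (chr8:94810453-94812036) encodes a ligand of the chemokine receptor Ccr4 on T cells. It was at 40.2 and 42.9 CPM in CD11b+CD11c+ cells, against 4.54 and 5.03 CPM in CD11b+ cells (log2 fold change 3.11, SE 0.32, adjusted p = 0.0041). Ccl22, the other Ccr4 ligand, was at 61.1 and 48.4 CPM in CD11b+CD11c+ cells, against 6.77 and 9.88 CPM in CD11b+ cells (log2 fold change 2.71, SE 0.29, adjusted p = 0.0045). Ccr7, the receptor that guides cells to lymph nodes (chr11:99144196-99155077), was at 321 and 257 CPM in CD11b+CD11c+ cells, against 62.9 and 54.997 CPM in CD11b+ cells (log2 fold change 2.30, SE 0.22, adjusted p = 0.0030). Il4i1, a secreted amino acid oxidase, was at 74.1 and 63.01 CPM in CD11b+CD11c+ cells, against 20.1 and 26.96 CPM in CD11b+ cells (log2 fold change 1.54, SE 0.21, adjusted p = 0.0098). The CD11c+ libraries were near the CD11b+ level, at 4.36 and 8.87 CPM for Ccl17, 6.98 and 11.4 for Ccl22, 57.4 and 85.2 for Ccr7 and 13.004 and 18.3 for Il4i1, so all 4 genes were also called higher than in CD11c+ cells, with log2 differences of 2.68, 2.59, 2.02 and 2.14.

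Other genes of maturation were not called. Cd83, a surface marker of activation, was at 1253 and 1528 CPM in CD11b+CD11c+ cells, against 877 and 1018 CPM in CD11b+ cells (adjusted p = 0.13). Fscn1, an actin bundler of mature cells, was at 18.8 and 26.8 CPM in CD11b+CD11c+ cells, against 15.3 and 16.3 CPM in CD11b+ cells (adjusted p = 0.26). Relb, a transcription factor of maturation, was at 424 and 438 CPM in CD11b+CD11c+ cells, against 418 and 412 CPM in CD11b+ cells (adjusted p = 0.81), and Socs2 overlapped between the groups. Lamp3 had too few counts to be tested. The number of mature dendritic cell genes called was 3 and 4 without CD11b+CD11c+ replicate 1 and 2, and 1 and 4 without CD11b+ replicate 1 and 2.

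**Figure D2:**
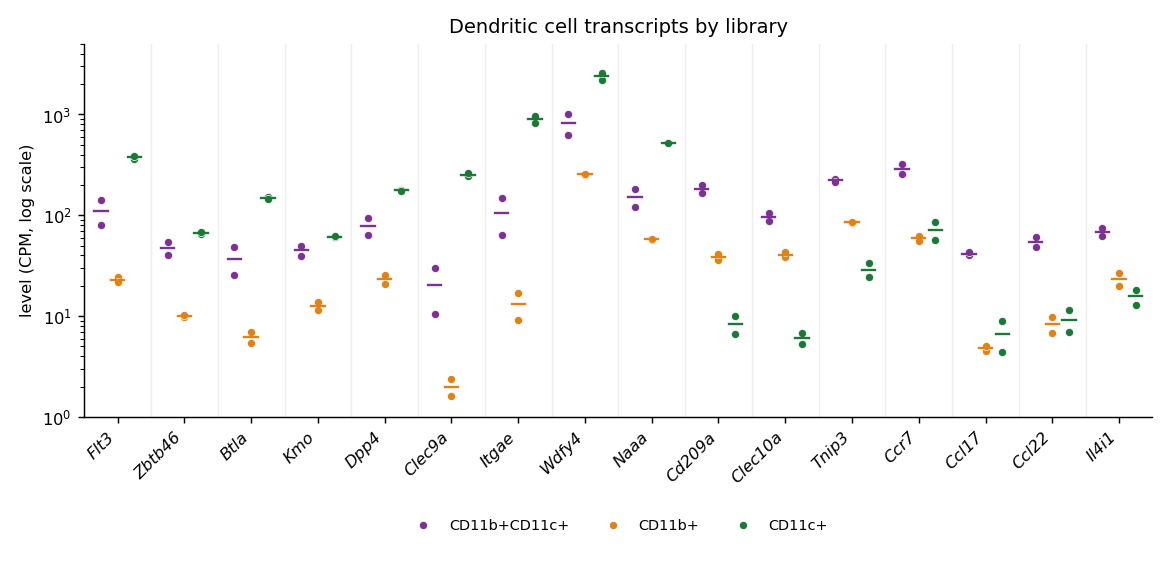
Levels of 16 dendritic cell transcripts in each library (CPM, log axis), with CD11b+CD11c+ left, CD11b+ in the middle and CD11c+ right for each gene; points are libraries and bars the mean of the 2 libraries of a group. From Flt3 to Naaa the CD11c+ libraries are the highest, while Cd209a, Clec10a, Tnip3, Ccr7, Ccl17, Ccl22 and Il4i1 are highest in CD11b+CD11c+ cells.

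Macrophage genes common to most tissues were not called. Of 18 measured genes, none passed in either direction in edgeR or DESeq2, 1 had an unadjusted p under 0.05, and the median log2 fold change was 0.24. Csf1r was at 2103 and 2764 CPM in CD11b+CD11c+ cells, against 2051 and 2199 CPM in CD11b+ cells (adjusted p = 0.89). C1qa, a chain of complement C1q made by macrophages, was at 1040.4 and 1429 CPM in CD11b+CD11c+ cells, against 950.1 and 1167 CPM in CD11b+ cells, and Apoe, the lipid carrier, at 6673 and 10522 CPM in CD11b+CD11c+ cells, against 7443 and 10300.0 CPM in CD11b+ cells. For these 3 genes CD11b+CD11c+ replicate 2 was the highest library and the groups overlapped. Summed over the list, the level was 18807 and 26748 CPM in CD11b+CD11c+ cells and 18584 and 23139 CPM in CD11b+ cells. Mrc1, the mannose receptor, was at 2062 and 2499.6 CPM in CD11b+CD11c+ cells, against 1389 and 1509.9 CPM in CD11b+ cells (log2 fold change 0.65, SE 0.68, adjusted p = 0.60), and at 24.1 and 138 CPM in the CD11c+ libraries. A fit of the 4 compared libraries alone called 2 genes, Mrc1 (adjusted p = 0.031) and Cd68, a lysosomal membrane protein of macrophages (adjusted p = 0.045).

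Genes of perivascular and submucosal macrophages were all above their CD11b+ level. In each of the 15 measured genes both CD11b+CD11c+ libraries lay above both CD11b+ libraries, with a median log2 fold change of 0.83, and 3 were called higher. Over all genes tested, 4178 of 14225 had both CD11b+CD11c+ libraries above both CD11b+ libraries, and 3.79% were called higher. Cd209d, a DC-SIGN family lectin, was at 11.7 and 12.3 CPM in CD11b+CD11c+ cells, against 4.23 and 2.74 CPM in CD11b+ cells (log2 fold change 1.80, SE 0.25, adjusted p = 0.0092). Timd4, a receptor for phosphatidylserine on dead cells, was at 126 and 115 CPM in CD11b+CD11c+ cells, against 50.8 and 58.4 CPM in CD11b+ cells (log2 fold change 1.14, SE 0.11, adjusted p = 0.0030). Igf1, the growth factor, was at 32.8 and 33.1 CPM in CD11b+CD11c+ cells, against 17.7 and 21.3 CPM in CD11b+ cells (log2 fold change 0.75, SE 0.16, adjusted p = 0.037). With a library left out, the number called was 1 and 2 without CD11b+CD11c+ replicate 1 and 2, and 2 and 2 without CD11b+ replicate 1 and 2.

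The rest of that list was not called in the test across all 3 populations, although some folds were larger than that of Igf1. Lyve1, a hyaluronan receptor of perivascular macrophages, was at 141 and 157 CPM in CD11b+CD11c+ cells, against 83.9 and 74.5 CPM in CD11b+ cells (log2 fold change 0.91, SE 0.30, adjusted p = 0.12). Cd163, the receptor for hemoglobin bound to haptoglobin, was at 622 and 686 CPM in CD11b+CD11c+ cells, against 395 and 360.4 CPM in CD11b+ cells (log2 fold change 0.79, SE 0.42, adjusted p = 0.30). Folr2, a folate receptor, was at 183 and 210.1 CPM in CD11b+CD11c+ cells, against 99.7 and 98.1 CPM in CD11b+ cells (log2 fold change 0.99, SE 0.40, adjusted p = 0.19), and F13a1, a coagulation factor chain, at 729 and 809 CPM in CD11b+CD11c+ cells, against 464 and 436 CPM in CD11b+ cells (log2 fold change 0.77, SE 0.59, adjusted p = 0.47). The CD11c+ libraries, whose spread enters that test, were at 6.8999 and 20.2 CPM for Cd163 and 5.08 and 24.4 CPM for F13a1. In the fit of the 4 compared libraries alone, 12 of the 15 genes were called higher, with adjusted p of 0.0040 for Lyve1, 0.0059 for Cd163, 0.0023 for Folr2 and 0.0061 for F13a1. DESeq2 called 6.

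Mucosal macrophage genes went both ways, with 2 of 15 higher, 2 lower and a median of 0.10. The shares over all genes were 3.79% higher and 5.84% lower. Il22ra2, a soluble receptor that binds and blocks interleukin 22 (chr10:19621998-19634681), was at 31.4 and 37.03 CPM in CD11b+CD11c+ cells, against 4.77 and 2.46 CPM in CD11b+ cells (log2 fold change 3.27, SE 0.32, adjusted p = 0.0032). Its level in CD11c+ cells was 28.6 and 38.97 CPM, and dendritic cells are also known to make it. Tnfsf9, the ligand of 4-1BB on T cells, rose by 0.68. Adamdec1, a secreted metalloprotease of gut macrophages and stromal cells (chr14:68563380-68582095), was at 105 and 116 CPM in CD11b+CD11c+ cells, against 542 and 455 CPM in CD11b+ cells (log2 fold change -2.17, SE 0.17, adjusted p = 0.0019), and Hes1, a Notch target, at 63.6 and 75.2 CPM in CD11b+CD11c+ cells, against 118 and 108 CPM in CD11b+ cells (log2 fold change -0.70, SE 0.15, adjusted p = 0.036). The cytokine Il10 was at 136 and 317 CPM in CD11b+CD11c+ cells, against 164 and 258 CPM in CD11b+ cells, with replicate 2 above replicate 1 in both populations and no separation of the groups. Pgf, Mmp13 and Dnase1l3 likewise had replicate 2 above replicate 1 in both populations and overlapped. With 1 of the 4 compared libraries left out, 1 gene of the list was higher and 1 lower in each fit.

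**Figure D3:**
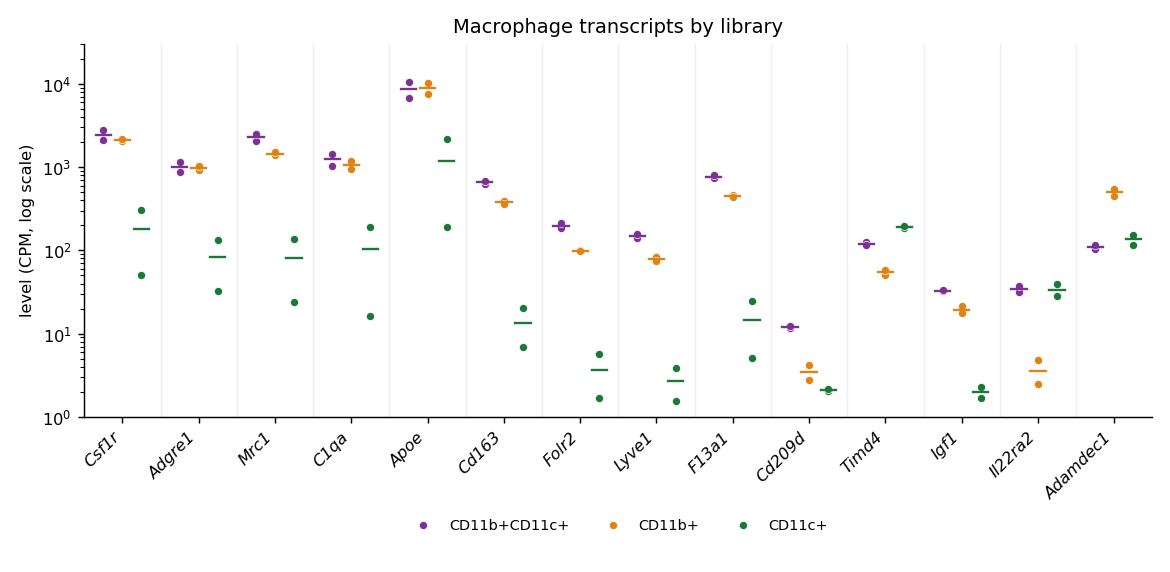
Levels of 14 macrophage transcripts in each library (CPM, log axis), with CD11b+CD11c+ left, CD11b+ in the middle and CD11c+ right for each gene; points are libraries and bars the mean of the 2 libraries of a group. Csf1r, Adgre1, C1qa and Apoe overlap between CD11b+CD11c+ and CD11b+ cells, the genes from Cd163 to Igf1 are higher in both CD11b+CD11c+ libraries, and Adamdec1 is lower.

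Granulocyte genes were lower in CD11b+CD11c+ cells, with some of the largest folds of the comparison. Of 11 measured neutrophil genes, 7 fell, where 5.84% of all genes did, and none rose. The median was -3.43, and in all 11 both CD11b+CD11c+ libraries lay below both CD11b+ libraries, as in 4268 of all 14225 genes tested. S100a9, a subunit of calprotectin (chr3:90692632-90695721), was at 1.15 and 3.19 CPM in CD11b+CD11c+ cells, against 67.2 and 47.5 CPM in CD11b+ cells (log2 fold change -4.74, SE 0.43, adjusted p = 0.0029). Its partner S100a8 was at 0.407 and 1.24 CPM in CD11b+CD11c+ cells, against 20.5 and 20.1 CPM in CD11b+ cells (log2 fold change -4.64, SE 0.43, adjusted p = 0.0049). Without CD11b+CD11c+ replicate 2 the log2 fold change of S100a9 was -5.54 and that of S100a8 -5.53, and without replicate 1 they were -4.16 and -4.01. Retnlg, a resistin-like secreted protein of neutrophils, was at 25.3 and 24.2 CPM in CD11b+CD11c+ cells, against 288 and 246 CPM in CD11b+ cells (log2 fold change -3.43, SE 0.15, adjusted p = 0.00085), and part of its reads may be shared with Retnla. Padi4, an enzyme that converts arginine in histones to citrulline, was not on the list and was at 4.95 and 8.79 CPM in CD11b+CD11c+ cells, against 85.1 and 82.8 CPM in CD11b+ cells (log2 fold change -3.62, SE 0.25, adjusted p = 0.0015).

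Other neutrophil genes were scarce. Cxcr2, the receptor for neutrophil chemokines, was at 0.542 and 0.778 CPM in CD11b+CD11c+ cells, against 7.38 and 3.66 CPM in CD11b+ cells (log2 fold change -3.05, and -2.46 without CD11b+ replicate 1). Lcn2, which binds bacterial iron carriers, was at 1.22 and 0.545 CPM in CD11b+CD11c+ cells, against 7.69 and 10.9 CPM in CD11b+ cells (log2 fold change -3.37, and -4.08 without CD11b+CD11c+ replicate 1). Ltf, lactoferrin, was at 0.949 and 0.389 CPM in CD11b+CD11c+ cells, against 5.77 and 19.3 CPM in CD11b+ cells (log2 fold change -4.20, -4.99 without CD11b+CD11c+ replicate 1 and -2.98 without CD11b+ replicate 2). Ngp, a granule protein, had no count in either CD11b+CD11c+ library and was at 3.85 and 17.5 CPM in CD11b+ cells, so it was at least 48.9-fold lower against a floor of 3 counts per library. Mmp9 and Csf3r, which other myeloid cells also express, were not called, with Csf3r at 99.1 and 131 CPM in CD11b+CD11c+ cells, against 225 and 203 CPM in CD11b+ cells (adjusted p = 0.40). Summed over the list, the level was 216 and 282 CPM in CD11b+CD11c+ cells and 815 and 769 CPM in CD11b+ cells. The neutrophil surface marker Ly6g and the granule genes Elane and Mpo had too few counts in every library to be tested. The number of genes lower was 5 and 4 without CD11b+CD11c+ replicate 1 and 2, and 5 and 4 without CD11b+ replicate 1 and 2, and 11 in the 4 compared libraries alone.

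Promoters are shown for the 2 calprotectin genes, which lie near each other on chromosome 3 and fell together, and for Ccr3, an eosinophil gene that fell, again as the 150 bases before the start. S100a9 is at chr3:90695722-90695871 on the minus strand, S100a8 at chr3:90668921-90669070 and Ccr3 at chr9:124021821-124021970 on the plus strand. Capitals mark TTNCNNAA on either strand, the core letters bound by C/EBP factors of myeloid cells, in S100a9 and S100a8. In Ccr3 they mark AGATAA, a form of the letters bound by GATA factors. Each stretch was marked for a single motif, and that of S100a9 also holds AGATAA, left in lower case.
S100a9: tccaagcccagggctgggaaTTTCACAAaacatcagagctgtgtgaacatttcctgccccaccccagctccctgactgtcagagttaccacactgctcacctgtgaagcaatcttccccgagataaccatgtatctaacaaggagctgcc
S100a8: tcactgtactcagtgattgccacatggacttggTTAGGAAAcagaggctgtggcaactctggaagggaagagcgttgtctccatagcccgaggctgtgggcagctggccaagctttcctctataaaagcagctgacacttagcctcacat
Ccr3: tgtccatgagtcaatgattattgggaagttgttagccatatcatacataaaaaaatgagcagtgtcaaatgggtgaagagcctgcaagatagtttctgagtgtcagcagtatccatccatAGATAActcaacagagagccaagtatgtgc
The match began 130 bases before the start in S100a9, 117 in S100a8 and 30 in Ccr3. These letters are common. TTNCNNAA was found in 32.3% of the promoters of genes tested and 32.7% of those of genes at least 2-fold lower, and AGATAA in 6.84% and 7.80%, in windows of 250 bases before to 50 after the start.

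Eosinophil genes fell as well, in 6 of 8 measured genes, with 1 higher and a median of -2.67. The shares over all genes were 5.84% lower and 3.79% higher. Ccr3, the eotaxin receptor (chr9:124021972-124031689), was at 6.78 and 13.9 CPM in CD11b+CD11c+ cells, against 125 and 109 CPM in CD11b+ cells (log2 fold change -3.51, SE 0.36, adjusted p = 0.0040). Alox15, a lipoxygenase abundant in eosinophils (chr11:70344152-70352031), was at 19.9 and 31.3 CPM in CD11b+CD11c+ cells, against 257 and 240.5 CPM in CD11b+ cells (log2 fold change -3.28, SE 0.23, adjusted p = 0.0015). Gata1, a transcription factor that eosinophils need, was at 0.814 and 1.24 CPM in CD11b+CD11c+ cells, against 11.6 and 11.1 CPM in CD11b+ cells (log2 fold change -3.47, SE 0.35, adjusted p = 0.0038). Siglecf, an inhibitory lectin of eosinophils, was at 10.3 and 11.8 CPM in CD11b+CD11c+ cells, against 42.99 and 41.98 CPM in CD11b+ cells (log2 fold change -1.94, SE 0.12, adjusted p = 0.0013). In these 4 genes the libraries of the groups did not overlap, as in every called gene. In CD11c+ cells Ccr3 was at 0.417 and 0.121 CPM and Alox15 at 0.152 and 0.302 CPM. Il5ra, the receptor of the eosinophil growth factor, and Cebpe, a transcription factor of granulocytes, also fell, with log2 fold changes of -3.03 and -2.31.

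The 1 eosinophil gene that rose was Ear2, a ribonuclease that macrophages also express and that has near-identical copies, at 12.9 and 14.002 CPM in CD11b+CD11c+ cells, against 3.15 and 5.197 CPM in CD11b+ cells (log2 fold change 1.67, SE 0.26, adjusted p = 0.014). Prg2, which encodes the granule major basic protein, was at 4.88 and 3.73 CPM in CD11b+CD11c+ cells, against 5.23 and 7.42 CPM in CD11b+ cells, and was not called (adjusted p = 0.33). The granule genes Epx, Prg3, Ear1 and Ear6 had too few counts to be tested. Summed over the list, the level was 59.7 and 79.4 CPM in CD11b+CD11c+ cells and 470 and 434 CPM in CD11b+ cells. The number of genes lower was 4 and 5 without CD11b+CD11c+ replicate 1 and 2, and 3 and 6 without CD11b+ replicate 1 and 2.

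Monocyte genes were split. Of 15 measured, 8 fell and none rose, with a median of -0.93, where 5.84% of all genes fell. Chil3, a chitinase-like protein of monocytes and granulocytes, was at 5.97 and 4.43 CPM in CD11b+CD11c+ cells, against 38.7 and 37.4 CPM in CD11b+ cells (log2 fold change -2.86, SE 0.23, adjusted p = 0.0022). Vcan, a matrix proteoglycan of monocytes and fibroblasts, was at 16.4 and 15.6 CPM in CD11b+CD11c+ cells, against 119 and 102 CPM in CD11b+ cells (log2 fold change -2.78, SE 0.12, adjusted p = 0.00085). These and Ace, the angiotensin converting enzyme (log2 fold change -1.86), are also expressed by granulocytes or stromal cells. Ly6c2, the marker of classical monocytes, was at 41.4 and 33.6 CPM in CD11b+CD11c+ cells, against 73.2 and 69.7 CPM in CD11b+ cells (log2 fold change -0.93, SE 0.17, adjusted p = 0.023), and Plac8 at 119 and 66.2 CPM in CD11b+CD11c+ cells, against 276 and 212 CPM in CD11b+ cells (log2 fold change -1.39, SE 0.31, adjusted p = 0.041). Ccr2, the receptor by which monocytes leave the marrow, was at 89.6 and 79.7 CPM in CD11b+CD11c+ cells, against 84.7 and 96.6 CPM in CD11b+ cells, and its groups overlapped, as did those of Lyz2 and Fn1. The number of monocyte genes lower was 7 and 5 without CD11b+CD11c+ replicate 1 and 2, and 3 and 3 without CD11b+ replicate 1 and 2. Whether granulocytes, monocytes or stromal cells carried the shared genes was not tested.

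Mast cell and basophil genes were near the limit of detection apart from Kit and Hdc. Kit, the stem cell factor receptor, which dendritic cells also express, was at 129.5 and 76.2 CPM in CD11b+CD11c+ cells, against 32.1 and 23.8 CPM in CD11b+ cells (log2 fold change 1.88, SE 0.27, adjusted p = 0.011), and at 179.9 and 184 CPM in CD11c+ cells. Hdc, which makes histamine and is expressed by several granulocytes, was at 15.5 and 20.8 CPM in CD11b+CD11c+ cells, against 152 and 105 CPM in CD11b+ cells (log2 fold change -2.83, SE 0.23, adjusted p = 0.0021). Of 7 measured genes on the list, 1 rose, 1 fell and 5 were not called. Kit was not called without CD11b+ replicate 1 or 2, and Hdc was called in each fit without 1 of the 4 compared libraries.

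**Figure D4:**
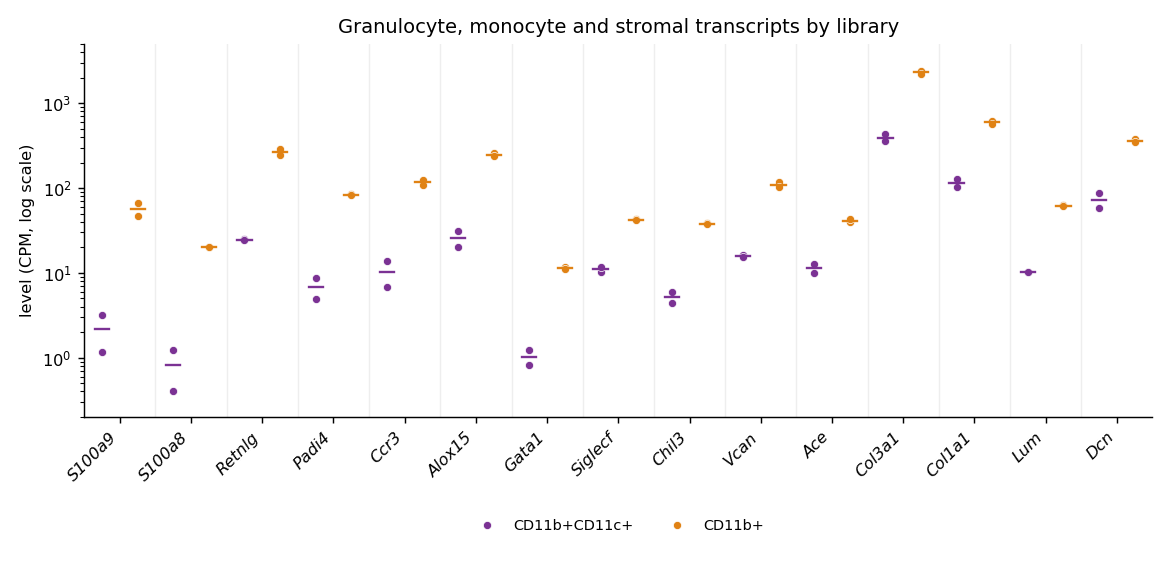
Levels of 15 granulocyte, monocyte and stromal transcripts in each library (CPM, log axis), with CD11b+CD11c+ left and CD11b+ right for each gene; points are libraries and bars the mean of the 2 libraries of a group. In all 15 genes both CD11b+CD11c+ libraries lie below both CD11b+ libraries, as in every gene called lower.

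Stromal transcripts were also lower. Of 12 measured stromal and endothelial genes, 7 fell and none rose, with a median of -1.82, where 5.84% of all genes fell. Col3a1, a fibrillar collagen chain (chr1:45311538-45349706), was at 429 and 354 CPM in CD11b+CD11c+ cells, against 2427 and 2191 CPM in CD11b+ cells (log2 fold change -2.56, SE 0.14, adjusted p = 0.0012). Col1a1 was at 129 and 103 CPM in CD11b+CD11c+ cells, against 625 and 569 CPM in CD11b+ cells (log2 fold change -2.36, SE 0.16, adjusted p = 0.0015), and Lum, a collagen-binding proteoglycan, at 10.2 and 10.1 CPM in CD11b+CD11c+ cells, against 62.5 and 60.7 CPM in CD11b+ cells (log2 fold change -2.60, SE 0.10, adjusted p = 0.00085). Dcn, another such proteoglycan, and the platelet-derived growth factor receptors Pdgfra and Pdgfrb also fell, with log2 fold changes of -2.31, -2.03 and -1.60. The endothelial genes Kdr and Cdh5 were under 4 CPM in the 4 libraries and overlapped. Summed over the list, the level was 907 and 746 CPM in CD11b+CD11c+ cells, 4486 and 4016 CPM in CD11b+ cells and 1309.5 and 1513 CPM in CD11c+ cells. The number of genes lower was 6 and 6 without CD11b+CD11c+ replicate 1 and 2, and 6 and 6 without CD11b+ replicate 1 and 2, and 10 in the 4 compared libraries alone. Outside the list, Igfbp3, a binding protein of insulin-like growth factors, was at 11.3 and 9.33 CPM in CD11b+CD11c+ cells, against 89.1 and 92.2 CPM in CD11b+ cells (log2 fold change -3.13, SE 0.18, adjusted p = 0.0012). Spon2 and C1qtnf3, which encode secreted proteins, fell, with log2 fold changes of -2.88 and -2.96.

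Epithelial and plasma cell transcripts were present in all 4 libraries and were not called. None of 14 epithelial genes passed in edgeR or DESeq2, 6 had an unadjusted p under 0.05, and no log2 fold change was above 0 (median -0.61). Krt8, an epithelial keratin, was at 182 and 214 CPM in CD11b+CD11c+ cells, against 361 and 254 CPM in CD11b+ cells (adjusted p = 0.14), with CD11b+ replicate 1 the highest. Of 11 plasma cell genes, none was called in edgeR, 2 had an unadjusted p under 0.05, and DESeq2 called 1 lower. Igha, the immunoglobulin A heavy chain constant gene, was at 10582 and 8344 CPM in CD11b+CD11c+ cells, against 13716 and 11063 CPM in CD11b+ cells (adjusted p = 0.32). Of 11 B cell genes, none was called by either tool and 2 had an unadjusted p under 0.05. The B cell adaptor gene Bank1 was at 74.3 and 84.1 CPM in CD11b+CD11c+ cells, against 78.4 and 78.2 CPM in CD11b+ cells.

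Lymphocyte genes were low and differed between the CD11b+CD11c+ replicates. Of 16 T cell genes, 15 were higher in replicate 1, where 7437 of all 14225 genes tested were. The list summed to 107 and 58.4 CPM in CD11b+CD11c+ cells and 71.2 and 62.7 CPM in CD11b+ cells. Cd3e, part of the T cell receptor complex, was at 2.37 and 0.545 CPM in CD11b+CD11c+ cells, against 1.15 and 1.26 CPM in CD11b+ cells. The only T cell list gene called was Cd2, an adhesion molecule also found on other leukocytes, at 33.6 and 25.8 CPM in CD11b+CD11c+ cells, against 18.6 and 14.96 CPM in CD11b+ cells (log2 fold change 0.83, SE 0.19, adjusted p = 0.044). Of 13 innate lymphoid and NK cell genes, the only one called was Klrk1, which encodes the receptor NKG2D, at 68.2 and 42.6 CPM in CD11b+CD11c+ cells, against 20.5 and 19.02 CPM in CD11b+ cells (log2 fold change 1.49, SE 0.24, adjusted p = 0.015), while the cytotoxic genes Gzma, Gzmb and Nkg7 overlapped between the groups. Outside the lists, the killer cell lectin-like genes Klri1 and Klrb1b rose. Klri1 was at 113 and 91.4 CPM in CD11b+CD11c+ cells, against 15.4 and 14.8 CPM in CD11b+ cells (log2 fold change 2.76, SE 0.13, adjusted p = 0.00085), and Klrb1b at 183 and 165 CPM in CD11b+CD11c+ cells, against 36.4 and 38.7 CPM in CD11b+ cells (log2 fold change 2.21, SE 0.10, adjusted p = 0.00085). CD11c+ cells held 83.7 and 83.97 CPM of Klri1 and 235 and 218 CPM of Klrb1b. Of 10 plasmacytoid dendritic cell genes, 1 fell, Irf7, and of 8 erythroid and platelet genes, 1 fell, the integrin chain Itga2b (log2 fold change -1.64). When any 1 of the 4 compared libraries was left out, 0 to 1 gene was called in the same direction on each of the T cell, NK cell and erythroid lists and 0 on the plasmacytoid list.

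C-type lectins, which bind sugars on microbes and on self proteins, rose in 8 of 21 genes and fell in 1, with a median of 1.01. Among all genes, 3.79% rose and 5.84% fell. Clec9a, Cd209a, Cd209d and Clec10a, described above, are among the 8. Cd209c, a DC-SIGN family lectin, was at 14.7 and 15.7 CPM in CD11b+CD11c+ cells, against 2.31 and 2.63 CPM in CD11b+ cells (log2 fold change 2.62, SE 0.19, adjusted p = 0.0015), and at 0.114 and 0.121 CPM in CD11c+ cells. Ly75, the endocytic receptor DEC-205, was at 30.2 and 18.4 CPM in CD11b+CD11c+ cells, against 7.998 and 6.05 CPM in CD11b+ cells (log2 fold change 1.80, SE 0.27, adjusted p = 0.012). Clec4b1 was at 17.5 and 13.8 CPM in CD11b+CD11c+ cells, against 4.31 and 6.51 CPM in CD11b+ cells (log2 fold change 1.52, SE 0.32, adjusted p = 0.038), and Clec4g at 4.34 and 3.19 CPM in CD11b+CD11c+ cells, against 0.615 and 0.343 CPM in CD11b+ cells (log2 fold change 2.997, SE 0.43, adjusted p = 0.011). The lectin that fell was Mrc2, a collagen receptor of fibroblasts and macrophages, at 5.63 and 2.8004 CPM in CD11b+CD11c+ cells, against 22.9 and 20.9 CPM in CD11b+ cells (log2 fold change -2.36, SE 0.30, adjusted p = 0.0076), and its log2 fold change was -2.96 without CD11b+CD11c+ replicate 1. The members Clec4a2, Clec4a3, Clec12a and Clec5a overlapped between the groups. Reads of the Cd209 family may be divided among near-identical copies. The number higher was 5 and 7 without CD11b+CD11c+ replicate 1 and 2, and 3 and 4 without CD11b+ replicate 1 and 2, and 12 in the 4 compared libraries alone.

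**Figure D5:**
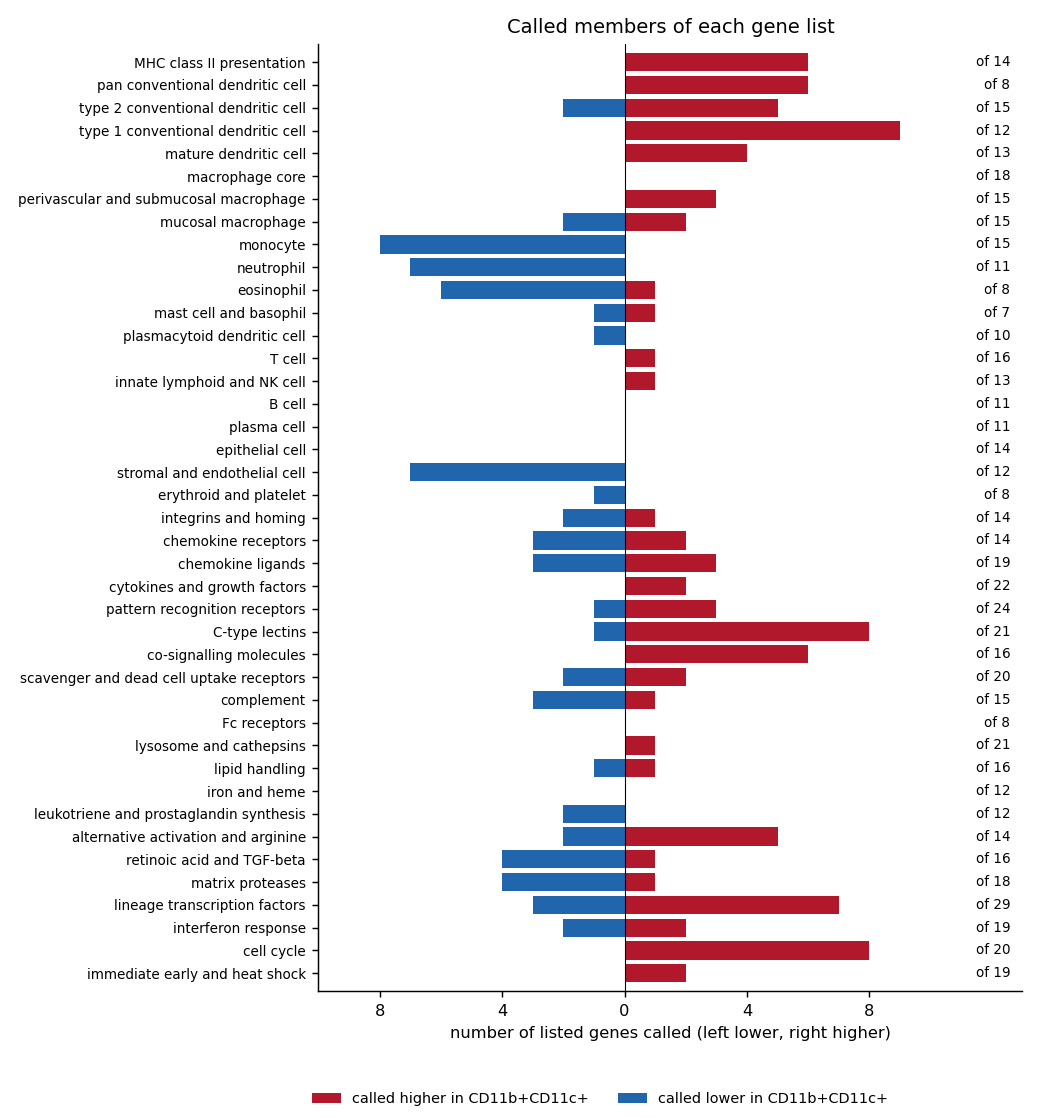
Number of genes called in each of the 41 gene lists, with red bars to the right for genes higher and blue bars to the left for genes lower in CD11b+CD11c+ cells, and the number of measured genes at the right edge. The longest red bars are type 1 conventional dendritic cell, C-type lectin and cell cycle genes, and the longest blue bars are monocyte, neutrophil and stromal genes.

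Co-signalling molecules, by which antigen-presenting cells activate or restrain T cells, rose in 6 of 16 genes and fell in none (median 0.57). Among all genes, 3.79% rose. Pdcd1lg2, the PD-1 ligand PD-L2, was at 9.49 and 5.601 CPM in CD11b+CD11c+ cells, against 2.46 and 1.83 CPM in CD11b+ cells (log2 fold change 1.83, SE 0.34, adjusted p = 0.025). Havcr2, the receptor TIM-3, was at 104 and 93.7 CPM in CD11b+CD11c+ cells, against 48.2 and 56.1 CPM in CD11b+ cells (log2 fold change 0.92, SE 0.11, adjusted p = 0.0068), and Icosl, the ligand of ICOS, at 176 and 165 CPM in CD11b+CD11c+ cells, against 104 and 109.7 CPM in CD11b+ cells (log2 fold change 0.68, SE 0.12, adjusted p = 0.022). Pvr, a ligand of TIGIT and CD226, and Tnfsf4, the ligand of OX40, rose by 0.73 and 1.60. The main ligands of CD28 were not called. Cd86 was at 492 and 522 CPM in CD11b+CD11c+ cells, against 343 and 396 CPM in CD11b+ cells (adjusted p = 0.092) and Cd80 at 261 and 264 CPM in CD11b+CD11c+ cells, against 223 and 224 CPM in CD11b+ cells (adjusted p = 0.29), with both CD11b+CD11c+ libraries above both CD11b+ libraries. Cd40, which receives help from T cells, was at 149.8 and 161 CPM in CD11b+CD11c+ cells, against 83.1 and 89.2 CPM in CD11b+ cells, with an adjusted p of 0.099, or 0.0024 in the 4 compared libraries alone. The number of genes called was 0 and 2 without CD11b+CD11c+ replicate 1 and 2, and 0 and 1 without CD11b+ replicate 1 and 2, and 9 in the 4 compared libraries alone.

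Chemokine ligands gave 3 higher and 3 lower of 19, where 3.79% of all genes were called higher and 5.84% lower. Apart from Ccl17 and Ccl22, the riser was Cxcl9, a ligand of the chemokine receptor Cxcr3 on T cells. It was at 17.02 and 14.6 CPM in CD11b+CD11c+ cells, against 9.15 and 7.82 CPM in CD11b+ cells (log2 fold change 0.90, SE 0.17, adjusted p = 0.025). Ccl6, a chemokine made by myeloid cells, was at 317 and 292 CPM in CD11b+CD11c+ cells, against 726 and 726 CPM in CD11b+ cells (log2 fold change -1.25, SE 0.11, adjusted p = 0.0024). Ccl11, the eosinophil chemokine eotaxin, fell, with a log2 fold change of -2.32, and Cxcl13, which attracts B cells, of -2.20 at under 3 CPM (and -2.87 without CD11b+CD11c+ replicate 1). The abundant Cxcl2 was at 1234 and 1749 CPM in CD11b+CD11c+ cells, against 1209.7 and 1478 CPM in CD11b+ cells, and overlapped. Ccl2, the main ligand of Ccr2, was at 642 and 772 CPM in CD11b+CD11c+ cells, against 438 and 433 CPM in CD11b+ cells, and was not called (adjusted p = 0.50). The 4 compared libraries alone called 7 higher and 3 lower, with Ccl2 among them (adjusted p = 0.013). Without 1 of the 4 compared libraries, 0 to 2 ligands were called higher and 1 to 2 lower. Chemokine receptors gave 2 higher, Xcr1 and Ccr7, and 3 lower of 14, namely Ccr3, Cxcr2 and Ackr3, a scavenging receptor (log2 fold change -2.25), and in the same fits 1 to 2 were higher and 1 to 3 lower.

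Of 22 measured genes of cytokines and growth factors, 2 rose and none fell (median 0.09). Among all genes tested, 3.79% rose and 5.84% fell. Il6 was at 40.2 and 43.3 CPM in CD11b+CD11c+ cells, against 26.99 and 25.9 CPM in CD11b+ cells (log2 fold change 0.66, SE 0.12, adjusted p = 0.020), and the other was Igf1. Il1b was at 2835 and 4230.4 CPM in CD11b+CD11c+ cells, against 2834 and 3528 CPM in CD11b+ cells. Tnf was at 266 and 404 CPM in CD11b+CD11c+ cells, against 293 and 371 CPM in CD11b+ cells, and Tgfb1 at 381 and 409.6 CPM in CD11b+CD11c+ cells, against 372 and 397 CPM in CD11b+ cells. In these 3 the groups overlapped. Il12b, the chain shared by interleukins 12 and 23, was at 11.6 and 12.7 CPM in CD11b+CD11c+ cells, against 5.15 and 5.31 CPM in CD11b+ cells, without a call (adjusted p = 0.088), and was called in the 4 compared libraries alone (adjusted p = 0.0070). Neither Il6 nor Igf1 was called when any 1 of the 4 compared libraries was left out.

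Pattern recognition receptors gave 3 higher and 1 lower of 24 (median 0.10), where 3.79% of all genes rose and 5.84% fell. Tlr11, a sensor of profilin of protozoa, was at 7.53 and 4.901 CPM in CD11b+CD11c+ cells, against 1.15 and 1.03 CPM in CD11b+ cells (log2 fold change 2.52, SE 0.26, adjusted p = 0.0042). Nod2, which senses bacterial muramyl dipeptide, was at 123 and 113 CPM in CD11b+CD11c+ cells, against 78.2 and 86.5 CPM in CD11b+ cells (log2 fold change 0.52, SE 0.11, adjusted p = 0.040), whereas Nod1, a sensor of a related peptidoglycan fragment, was at 27.3 and 28.1 CPM in CD11b+CD11c+ cells, against 48.4 and 44.7 CPM in CD11b+ cells (log2 fold change -0.75, SE 0.16, adjusted p = 0.040). The lipopolysaccharide receptor Tlr4 was at 33.6 and 34.2 CPM in CD11b+CD11c+ cells, against 35.8 and 37.2 CPM in CD11b+ cells (adjusted p = 0.64), and Nlrp3, an inflammasome sensor, at 917 and 1425 CPM in CD11b+CD11c+ cells, against 889.7 and 1120.1 CPM in CD11b+ cells, with overlap. Clec4e, the receptor Mincle, was at 134 and 129 CPM in CD11b+CD11c+ cells, against 253 and 226 CPM in CD11b+ cells, with an adjusted p of 0.16, or 0.0029 in the 4 compared libraries alone, which called 4 higher and 3 lower on this list. With 1 of those libraries left out, 1 to 2 receptors were higher and 0 lower.

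Among 14 integrin and homing genes, Itgae rose and 2 fell, where 3.79% of all genes rose and 5.84% fell. Itgal, the alpha chain of LFA-1, was at 172 and 192 CPM in CD11b+CD11c+ cells, against 445 and 407 CPM in CD11b+ cells (log2 fold change -1.23, SE 0.10, adjusted p = 0.0022). Itgb3, a chain of platelet and vitronectin receptors, fell, with a log2 fold change of -1.34. Itgb7, the gut-homing chain that pairs with Itgae and Itga4, was at 333 and 236 CPM in CD11b+CD11c+ cells, against 221 and 189.8 CPM in CD11b+ cells, and was not called (adjusted p = 0.16). In fits without 1 of the compared libraries, 0 to 2 of these genes were higher and 1 was lower.

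Transcription factors of the lineages gave 7 higher and 3 lower of 29 (median 0.23), where 3.79% of all genes rose and 5.84% fell. Bhlhe40 was at 461 and 423 CPM in CD11b+CD11c+ cells, against 222 and 212 CPM in CD11b+ cells (log2 fold change 1.03, SE 0.09, adjusted p = 0.0026), and Zeb1 at 45.97 and 32.8 CPM in CD11b+CD11c+ cells, against 21.3 and 18.05 CPM in CD11b+ cells (log2 fold change 1.01, SE 0.18, adjusted p = 0.022). Rbpj, the nuclear effector of Notch, was at 304 and 282 CPM in CD11b+CD11c+ cells, against 170.1 and 189 CPM in CD11b+ cells (log2 fold change 0.71, SE 0.10, adjusted p = 0.0090), and Runx1 rose by 0.39. The others that rose were Zbtb46, Batf3 and Irf4, and those that fell were Gata1, Cebpe and Hes1. Spi1, which encodes PU.1, was at 411 and 448 CPM in CD11b+CD11c+ cells, against 493 and 501 CPM in CD11b+ cells (adjusted p = 0.44). The number higher was 3 and 6 without CD11b+CD11c+ replicate 1 and 2, and 2 and 3 without CD11b+ replicate 1 and 2, and the number lower 0 to 2.

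Of 20 cell cycle genes, 8 rose, where 3.79% of all genes did, and none fell, with a median of 0.61. In 18 of 20 both CD11b+CD11c+ libraries lay above both CD11b+ libraries, as in 4178 of all 14225 genes tested. Mki67, the proliferation antigen Ki-67, was at 646 and 679.6 CPM in CD11b+CD11c+ cells, against 365 and 380.2 CPM in CD11b+ cells (log2 fold change 0.83, SE 0.11, adjusted p = 0.0087). Top2a, a topoisomerase of dividing cells, was at 135 and 138 CPM in CD11b+CD11c+ cells, against 72.4 and 78.1 CPM in CD11b+ cells (log2 fold change 0.86, SE 0.09, adjusted p = 0.0046), and Mcm5, a subunit of the replication helicase, at 72.1 and 63.9 CPM in CD11b+CD11c+ cells, against 39.9 and 41.6 CPM in CD11b+ cells (log2 fold change 0.74, SE 0.10, adjusted p = 0.0078). Bub1, Ccnb2, Ccna2, Kif11 and Pcna also rose, by 0.36 to 0.83. Plk1 was at 13.9 and 16.2 CPM in CD11b+CD11c+ cells, against 16.5 and 17.4 CPM in CD11b+ cells, on the lower side in both libraries and without a call. DESeq2 called 14 higher. The number in edgeR was 2 and 4 without CD11b+CD11c+ replicate 1 and 2, and 0 and 3 without CD11b+ replicate 1 and 2.

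All 19 immediate early and heat shock genes were higher in CD11b+CD11c+ replicate 2 than in replicate 1. Over all genes tested, 7437 of 14225 were higher in replicate 1. On this list, 2 genes rose and none fell, where 3.79% of all genes rose and 5.84% fell. They were Egr3, a transcription factor induced on activation, at 21.6 and 24.3 CPM in CD11b+CD11c+ cells, against 11.6 and 13.8 CPM in CD11b+ cells (log2 fold change 0.85, SE 0.15, adjusted p = 0.019), and Hsph1, a chaperone, at 256 and 283 CPM in CD11b+CD11c+ cells, against 162 and 162 CPM in CD11b+ cells (log2 fold change 0.73, SE 0.12, adjusted p = 0.015). Fos was at 641 and 795 CPM in CD11b+CD11c+ cells, against 873 and 851 CPM in CD11b+ cells, and was not called (adjusted p = 0.27). DESeq2 called 6 higher, and edgeR 0 when any 1 of the 4 compared libraries was left out. Interferon response genes gave 2 higher, Cxcl9 and Stat2, and 2 lower of 19, namely Irf7, a transcription factor, at 27.4 and 26.5 CPM in CD11b+CD11c+ cells, against 46.1 and 49.97 CPM in CD11b+ cells (log2 fold change -0.83, SE 0.11, adjusted p = 0.0092), and Oas3, an antiviral synthetase, at 6.37 and 5.83 CPM in CD11b+CD11c+ cells, against 13.1 and 12.2 CPM in CD11b+ cells (log2 fold change -1.04, SE 0.16, adjusted p = 0.015). When 1 of the 4 compared libraries was left out, the median log2 fold change of the interferon genes was -0.10 to 0.05.

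Of 20 scavenger and dead cell uptake receptors, 2 rose and 2 fell, where 3.79% of all genes tested rose and 5.84% fell. Cd36, a fatty acid and lipoprotein receptor, was at 674 and 789 CPM in CD11b+CD11c+ cells, against 419.9 and 409 CPM in CD11b+ cells (log2 fold change 0.82, SE 0.12, adjusted p = 0.011), and the other riser was Timd4. Cd300lf, an inhibitory lipid receptor, was at 33.8 and 37.1 CPM in CD11b+CD11c+ cells, against 196 and 161 CPM in CD11b+ cells (log2 fold change -2.33, SE 0.13, adjusted p = 0.0012), and Olr1, a receptor for oxidized lipoprotein, fell, with a log2 fold change of -1.69. The 4 compared libraries alone called 4 higher and 3 lower. Of 21 lysosome and cathepsin genes, 1 rose, Cst3, a secreted inhibitor of cathepsins that dendritic cells express strongly, at 1792 and 1202 CPM in CD11b+CD11c+ cells, against 619.9 and 632 CPM in CD11b+ cells (log2 fold change 1.26, SE 0.19, adjusted p = 0.013). Ctsb, a lysosomal protease, was at 2115 and 2714 CPM in CD11b+CD11c+ cells, against 1844 and 2047 CPM in CD11b+ cells (adjusted p = 0.60). With 1 of the 4 compared libraries left out, 1 to 2 uptake receptors rose, 1 to 2 fell, and 0 to 1 lysosomal gene rose.

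Lipid handling genes gave 1 higher and 1 lower of 16, where 3.79% of all genes rose and 5.84% fell. Fabp5, a fatty acid binding protein, was at 48.6 and 47.99 CPM in CD11b+CD11c+ cells, against 34.1 and 37.3 CPM in CD11b+ cells (log2 fold change 0.44, SE 0.10, adjusted p = 0.044), and Cd9, a tetraspanin, at 178 and 230.2 CPM in CD11b+CD11c+ cells, against 456 and 427 CPM in CD11b+ cells (log2 fold change -1.11, SE 0.14, adjusted p = 0.0077). The 4 compared libraries alone called 3 higher and 1 lower, and with 1 of them left out 0 were higher and 0 to 1 lower. Of 12 iron and heme genes, none was called by edgeR, 3 had an unadjusted p under 0.05, DESeq2 called 1 higher and the 4 compared libraries alone 2. Those 2 were Slc40a1, the iron exporter ferroportin (adjusted p = 0.027), and Hmox1, which breaks down heme, at 407 and 444 CPM in CD11b+CD11c+ cells, against 248 and 265 CPM in CD11b+ cells (adjusted p = 0.0049, and 0.33 with the CD11c+ libraries in the fit).

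Complement genes gave 1 higher and 3 lower of 15, where 3.79% of all genes rose and 5.84% fell. Cfp, properdin, was at 582 and 548 CPM in CD11b+CD11c+ cells, against 295 and 305 CPM in CD11b+ cells (log2 fold change 0.91, SE 0.11, adjusted p = 0.0060). C3 was at 173 and 161 CPM in CD11b+CD11c+ cells, against 320.3 and 286 CPM in CD11b+ cells (log2 fold change -0.86, SE 0.11, adjusted p = 0.0076), and C4b and Cd55, a protective receptor, fell, with log2 fold changes of -1.03 and -1.25. When any 1 of the 4 compared libraries was left out, 0 to 1 complement gene was higher and 0 to 3 were lower. Of 8 Fc receptor genes, none was called by edgeR or DESeq2, 2 had an unadjusted p under 0.05, and the 4 compared libraries alone called 1 higher, Fcgrt (adjusted p = 0.035). Fcgr3 was at 262 and 315 CPM in CD11b+CD11c+ cells, against 278 and 313 CPM in CD11b+ cells, and overlapped.

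Of 12 leukotriene and prostaglandin genes, 2 fell, Alox15 and Ptges, a prostaglandin E synthase (log2 fold change -2.27, and -2.88 without CD11b+CD11c+ replicate 1). Genes of alternative activation and arginine use gave 5 higher and 2 lower of 14, where 3.79% of all genes rose and 5.84% fell. Retnla, a resistin-like protein induced by interleukin 4, was at 244 and 171 CPM in CD11b+CD11c+ cells, against 111 and 109 CPM in CD11b+ cells (log2 fold change 0.91, SE 0.17, adjusted p = 0.023), and Arg2, a mitochondrial arginase, at 12.2 and 13.1 CPM in CD11b+CD11c+ cells, against 35.7 and 29.5 CPM in CD11b+ cells (log2 fold change -1.37, SE 0.14, adjusted p = 0.0040). Arg1 was at 9.696 and 4.04 CPM in CD11b+CD11c+ cells, against 4.77 and 6.396 CPM in CD11b+ cells, and overlapped. Without 1 of the 4 compared libraries, 1 to 2 leukotriene genes fell, and 0 to 5 genes of alternative activation rose and 1 to 2 fell.

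Of 16 genes of retinoic acid and TGF-beta signalling, 1 rose and 4 fell, where 3.79% of all genes rose and 5.84% fell. Aldh1a2, the enzyme by which gut dendritic cells make retinoic acid, was at 34.5 and 28.1 CPM in CD11b+CD11c+ cells, against 12.2 and 13.4 CPM in CD11b+ cells (log2 fold change 1.29, SE 0.14, adjusted p = 0.0047). Ltbp1, which holds latent TGF-beta in the matrix, was at 7.53 and 6.61 CPM in CD11b+CD11c+ cells, against 41.5 and 33.2 CPM in CD11b+ cells (log2 fold change -2.40, SE 0.20, adjusted p = 0.0022). Aldh1a3, Rdh10 and Smad3 also fell, with log2 fold changes of -1.83, -0.90 and -0.60. Matrix proteases and inhibitors gave 1 higher and 4 lower of 18. Serpinb2, a plasminogen activator inhibitor, was at 35.5 and 47.1 CPM in CD11b+CD11c+ cells, against 269 and 278 CPM in CD11b+ cells (log2 fold change -2.73, SE 0.22, adjusted p = 0.0022), and Mmp2, a gelatinase of stromal cells, at 33.97 and 50.6 CPM in CD11b+CD11c+ cells, against 129.9 and 117 CPM in CD11b+ cells (log2 fold change -1.55, SE 0.27, adjusted p = 0.019). Timp3 and Adamdec1 were the other genes that fell, and Mmp19 rose by 0.73. The 4 compared libraries alone called 2 higher and 6 lower, and with 1 of them left out 0 were higher and 2 to 4 lower. On the retinoic acid list 0 to 1 were then higher and 1 to 2 lower.

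Some of the largest differences lie outside these lists. Zfp366, a zinc finger protein expressed by dendritic cells, was at 37.6 and 25.6 CPM in CD11b+CD11c+ cells, against 3.08 and 3.88 CPM in CD11b+ cells (log2 fold change 3.17, SE 0.24, adjusted p = 0.0016), and Htr7, a serotonin receptor, at 41.1 and 24.04 CPM in CD11b+CD11c+ cells, against 6.61 and 6.796 CPM in CD11b+ cells (log2 fold change 2.28, SE 0.26, adjusted p = 0.0051). CD11c+ cells held 25.2 and 28.3 CPM of Zfp366 and 74.9 and 77.8 CPM of Htr7. Rab44, a Rab family GTPase of granulocytes and mast cells (chr17:29114145-29148980), was at 40.9 and 53.5 CPM in CD11b+CD11c+ cells, against 609.7 and 509 CPM in CD11b+ cells (log2 fold change -3.57, SE 0.25, adjusted p = 0.0015). F5, coagulation factor V, was at 40.1 and 52.7 CPM in CD11b+CD11c+ cells, against 414 and 375 CPM in CD11b+ cells (log2 fold change -3.09, SE 0.18, adjusted p = 0.0013), and G0s2, an inhibitor of fat breakdown, at 3.93 and 6.15 CPM in CD11b+CD11c+ cells, against 42.6 and 39.7 CPM in CD11b+ cells (log2 fold change -3.04, SE 0.22, adjusted p = 0.0015). Nfe2, a transcription factor of megakaryocytes, fell, with a log2 fold change of -3.31, Tesc, a calcium-binding protein, of -3.35, and Rflnb of -3.46, which was -4.08 without CD11b+CD11c+ replicate 2.

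Among called genes with the highest CPM, most rises given here were under 2-fold. Myo1g, and Cst3 and Il1r2 described above, rose at least 2-fold. Vim, an intermediate filament of mesenchymal and myeloid cells, was at 4092 and 4052 CPM in CD11b+CD11c+ cells, against 2801 and 2954 CPM in CD11b+ cells (log2 fold change 0.50, SE 0.11, adjusted p = 0.041). Hspa8, a chaperone, was at 3572 and 3525 CPM in CD11b+CD11c+ cells, against 2561 and 2578 CPM in CD11b+ cells (log2 fold change 0.47, SE 0.10, adjusted p = 0.036). These and mt-Nd5, a mitochondrially encoded subunit of respiratory complex I, lost their calls in the 4 compared libraries alone (adjusted p = 0.053, 0.058 and 0.054). Myo1g, a myosin of blood cells, was at 1129.6 and 1005 CPM in CD11b+CD11c+ cells, against 516 and 536 CPM in CD11b+ cells (log2 fold change 1.02, SE 0.12, adjusted p = 0.0061). Hsp90ab1, Wnk1, Gdi2 and Odc1 rose by 0.47, 0.68, 0.59 and 0.50.

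Among 8 abundant genes that fell, log2 fold changes ran from -0.64 to -1.78. Tgm2, a transglutaminase of macrophages and stromal cells, was at 678 and 808 CPM in CD11b+CD11c+ cells, against 2729.6 and 2384 CPM in CD11b+ cells (log2 fold change -1.78, SE 0.30, adjusted p = 0.017), and at 40.8 and 77.8 CPM in CD11c+ cells. Klf10, a transcription factor induced by TGF-beta, was at 935 and 855 CPM in CD11b+CD11c+ cells, against 1756 and 1417 CPM in CD11b+ cells (log2 fold change -0.83, SE 0.14, adjusted p = 0.017). Txnip, a brake on glucose uptake, was at 497 and 462 CPM in CD11b+CD11c+ cells, against 1073 and 892 CPM in CD11b+ cells (log2 fold change -1.03, SE 0.12, adjusted p = 0.0055), and Gsn, gelsolin, which cuts actin filaments, at 614 and 534 CPM in CD11b+CD11c+ cells, against 1206 and 1151 CPM in CD11b+ cells (log2 fold change -1.04, SE 0.11, adjusted p = 0.0043). Srgn, the proteoglycan of secretory granules, Vasp, an actin regulator, Ccdc88b and Paip1 fell, with log2 fold changes of -0.65, -0.75, -1.14 and -0.64. In each of these 8 genes both CD11b+CD11c+ libraries were below both CD11b+ libraries, as in every gene called lower.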

How the data were processed

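RNA of sorted cells was taken with TRIzol, and directional libraries were made from polyadenylated RNA, per the labels' protocols. The authors deposited 1 kallisto table per library, with estimated counts, relative transcript abundances (TPM), and full and effective transcript lengths in bases, per the file headers. Per the submitters' processing notes the tools were kallisto 0.44.0 and sleuth, on mm10. The sources used here do not give the strand setting, index release or filters, so overlapping and antisense genes cannot be fully told apart. Of 66760 transcripts, 65747 (98.48%) matched a GENCODE M21 gene by identifier, giving 22607 genes; unmatched transcripts held 0.53 to 0.67% of counts in the 6 libraries used. Of the lengths, 88.95% were multiples of 3, so most are coding lengths.

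From the deposited estimated counts, sums per gene were rounded and tested in edgeR 4.0.16 (R 4.3.3): filterByExpr, TMM scaling and the quasi-likelihood test on group alone in 6 libraries of 3 populations, with Benjamini-Hochberg adjustment over 14225 genes. CPM are relative to the TMM-scaled library size. The common coefficient of variation between replicates was 17.42%. Replicates of a group correlated at 0.979 (CD11b+CD11c+), 0.985 (CD11b+) and 0.976 (CD11c+) across genes (Pearson's r of log2 CPM) and differed by more than counting error. The fit was tested on simulated data. Alternatives were DESeq2 1.42.0, limma 3.58.1 on log2 of the deposited TPM, other scalings, filters and sets of libraries, the replicate number as a block, and each library left out.

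The groups and the 41 gene lists were chosen with earlier results of these data known. Genes were named by rule: the sort genes, the 15 largest rises and falls at 20 CPM or more, up to 4 called genes in each direction per list at 10 CPM or more, the 2 most abundant list genes that were not called, and the 10 most abundant called genes in each direction. Most of these are described, and the other genes named were chosen after their values were seen. A few genes are not reported here. Levels are compared between libraries, not between genes. Promoter sequences came from RefSeq (GRCm38.p6).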

Additional observations from a re-analysis of the deposited data

How the results depend on the processing

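Against 1370 genes called (539 higher, 831 lower), the alternatives gave these counts. DESeq2 called 1015 higher (50.02% of its calls, against 39.34%), all 10 libraries 1100 higher (60.54%), and no count filter 1111 higher (55.83%), 285 of them at least 2-fold. An offset for effective length gave 831 genes, 302 higher and 529 lower. On log2(TPM + 0.1), limma called 640 genes, 196 higher and 444 lower, of which 511 were at least 2-fold (121 higher, 390 lower), and 83 were on the gene lists. On log2(TPM + 1) it called 746 genes, 213 higher (28.55%) and 533 lower, of which 526 were at least 2-fold (104 higher, 422 lower). The 4 compared libraries alone gave 811 higher.

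The correlation of the deviations of same-numbered replicates was -0.01 between CD11b+CD11c+ and CD11b+ cells. It was 0.26 between CD11b+CD11c+ and CD11c+ cells and -0.06 between CD11b+ and CD11c+ cells. The main fit took group alone, and whether same-numbered libraries share a batch was not tested. With the replicate number as a block, 1427 genes were called in the 6 libraries (612 higher, 815 lower), and MHC class II genes higher numbered 11, against 6. In the 4 compared libraries the block gave 2199 genes, 1058 higher, with 222 on the lists.

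With 1 of the 6 libraries left out, 226 to 1748 genes were called, 39 to 752 higher and 187 to 996 lower. At 2-fold or more these were 222 to 898, with 39 to 253 higher and 183 to 701 lower, and 37 to 179 on the lists, against 132. The lowest counts all came without CD11b+ replicate 1, and the cause was not tested. None of the 1370 genes was called in the opposite direction under any alternative run, although the fold change of 5 changed sign, without a call, with the length offset and of 4 in each limma fit.

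Of the 158 called genes named above, 157 were called by DESeq2, 155 in the 4 compared libraries alone, 122 with the length offset, 105 and 112 by limma at TPM + 0.1 and TPM + 1, and 49 to 107 with 1 of the 4 compared libraries left out.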
